A study of Mus musculus with 2 samples.

Results

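The collagen genes of a mouse embryonic stem cell line were examined on 2 oligonucleotide arrays, 1 from cells given doxycycline and 1 from cells left without it. A collagen gene was any gene whose symbol is Col, a number, the letter a and a number, and that had a probeset assigned to it alone in the platform annotation. This gave 44 genes among the 19938 with such a probeset. They were split by the structure their protein builds into 11 fibrillar collagens, 8 basement membrane collagens (types IV, XV and XVIII) and 25 other collagens.

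The cells, i-OSKM-ESC, were made from KH2 mouse embryonic stem cells of strain 129 so that they express 4 reprogramming transcription factors (Oct4, Sox2 with an epitope tag, Klf4, c-Myc) when doxycycline, a tetracycline drug, is in the medium. One array held RNA of cells that had been in 4 µg/mL doxycycline for 24 hours, and the other held RNA of the same engineered line refed with fresh medium without the drug. Both cultures grew on gelatin and both carry the transgenes, and an array of the parental line with doxycycline was not analysed here. KH2 cells are known as a line in which transgenes are placed beside Col1a1, itself a collagen gene. The labels do not say whether the factors of these cells sit there. Each group has 1 array, so no difference below could be tested or given an error, and precision is limited by there being so few arrays.

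Collagens are secreted proteins in which 3 chains wind into a triple helix. Fibrillar collagens assemble into the ropes of connective tissue, type IV collagens form the sheet under epithelia and endothelia, and the remaining types decorate fibrils, link cells to the matrix or span the cell membrane. In the early mouse embryo, type IV collagen belongs to the first basement membranes, while the fibrillar types are typical of mesenchyme and cartilage.

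All values are log2 values after robust multi-array averaging (RMA), and a difference is the value of the array labelled plus doxycycline minus that of the array labelled no doxycycline. The expression filter kept genes with at least 1 of their 2 values at or above 6.48, which is the median of the whole table, and a kept gene was called when it differed at least 2-fold. Probesets differ in how well they hybridise, so levels are compared between the arrays and not between genes. Linear sums over a list weight each gene by its brightness, and they too are read only between the arrays. The embryonic stem cell markers were in keeping with the labelled cell type, since 10 of 10 passed the filter, among them Nanog (12.06 against 12.18). Pou5f1, also on that list, encodes Oct4 and so is itself a factor to be induced. Of the 4 factors to be induced, Sox2 was lower in the array labelled plus doxycycline (10.88 against 11.89). Pou5f1 (12.46 against 12.05), Klf4 (9.34 against 8.91) and Myc (10.42 against 10.07) were higher there, each factor from 1 probeset. Sox2 thus went against the label if its probes read the transgene, which the labels do not say, and every direction below rests on the labels.

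No collagen gene was called in either direction. Of the 44 genes, 28 passed the filter, and 0 of these differed 2-fold, where 1.69% of all 11191 genes passing did so (0.92% higher and 0.768% lower). At 1.5-fold there were also 0, against 3.24% higher and 3.8% lower of all genes passing, although Col9a3 was past 1.5-fold when the trend of the differences on mean level was removed (0.64) or the arrays were quantile normalized again (0.63). The differences were small but mostly of one sign. They were above 0 in 38 of 44 genes, whereas 51.6% of all genes and 54.2% of the genes within the collagens' range of mean level were above 0. The median difference was 0.26 over the 44 collagens and 0.01 over all genes, and the collagens lay between -0.18 and 0.62. The 28 that passed had a median of 0.26 beside -0.03 for all genes passing. Among the 28, 23 passed on both arrays and 5 only on the array labelled plus doxycycline, so those 5 had to be higher there. The 23 had a median of 0.22, with 19 above 0. In RNA from whole cultures, fewer cells of a type and less RNA per cell cannot be told apart.

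**Figure D1:**
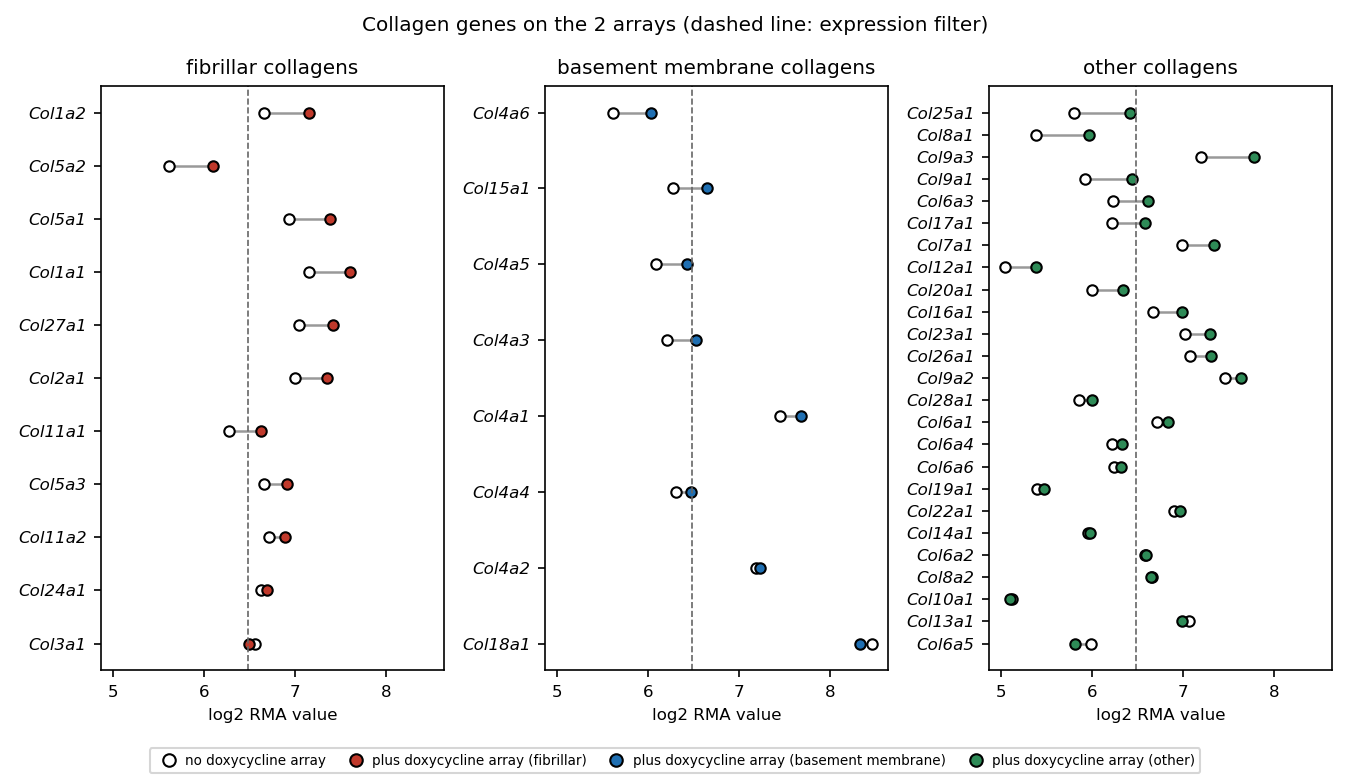
The log2 RMA value of each of the 44 collagen genes on the array labelled no doxycycline (open circles) and the array labelled plus doxycycline (filled circles), by class and sorted by difference, with the expression filter as a dashed line; there is 1 array per group. The filled circle lies to the right in 38 genes, and the longest line, that of Col25a1, spans 0.62.

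Differences over all genes also varied with brightness. In 20 bins of mean level their median went from 0.11 among genes between 5.62 and 5.89 to -0.09 among genes between 7.70 and 8.05, and the collagens fell in both kinds of bin. Set against the median of its own bin, 34 of the 44 collagens were higher, and the median distance was 0.25. The robust SD of the differences over all genes passing the filter was 0.25. A difference above it was found in 15 of the 28 collagens passing the filter, against 14.7% of all genes passing. Of the 28, 5 passed only on the array labelled plus doxycycline and so had to be higher there. Without the filter, 23 of the 44 collagens had a difference above this SD, against 16.6% of all genes. At a cut of 0.25 there were 22 of the 44 collagens, against 2144 of the 10724 genes within their range of mean level. For comparison, the differences of 2 probesets of 1 gene scattered around their mean with a pooled SD of 0.167. This was taken over the 492 genes with 2 probesets passing the filter. This is a spread within genes and not an error between cultures.

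**Figure D2:**
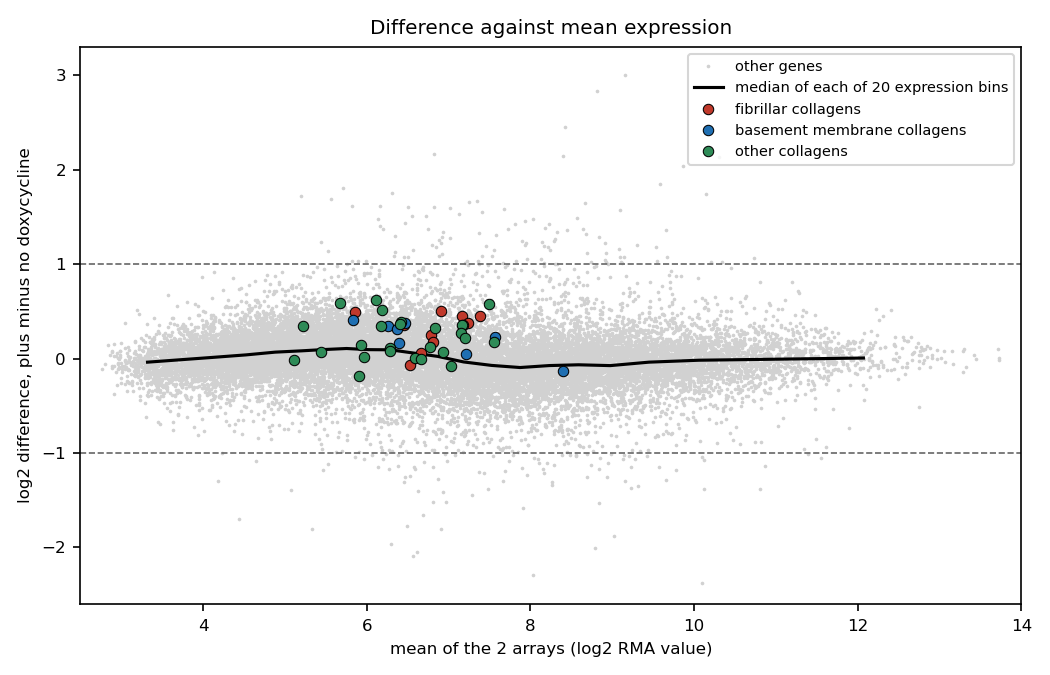
Log2 difference (plus minus no doxycycline) against the mean of both arrays for all 19938 genes (grey), with the median of each expression bin as a black line, the 2-fold threshold as dashed lines and the collagens in colour. The collagens lie between -0.18 and 0.62, inside the 2-fold lines, and 34 of 44 are above the median of their bin.

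The fibrillar collagens had the highest median of the classes, 0.36 over 11 genes, with 10 above 0, 10 passing the filter and 0 called. The medians were 0.28 for the 8 basement membrane collagens (7 above 0) and 0.18 for the 25 others (21 above 0). Over members passing the filter alone, they were 0.23 for 5 basement membrane collagens and 0.22 for 13 others. The ranges of the 3 classes overlapped, from -0.07 to 0.50, from -0.14 to 0.41 and from -0.18 to 0.62, and genes are not replicates, so the order of the classes was not tested. Markers of fibroblasts and feeder cells, which make fibrillar collagen, were read beside these values. Of 15, 8 were above 0 and the median was 0.18 (0.10 with the trend on mean level removed). On both arrays 9 lay below the filter, among them the defining markers Dcn (4.81 and 4.54), Lum (3.63 and 3.38) and Postn (4.80 and 4.55). Their most different members passing the filter were Fbln2 (0.52), Acta2 (0.42) and Thy1 (0.27). The other members passing, Pdgfrb (-0.25), Fbln1 (-0.13) and Vim (-0.10), were below 0, and the median over those passing was 0.09. Acta2 (6.59 and 6.17) passed only on the array labelled plus doxycycline. Summed on the linear scale, the list had 2678 with doxycycline and 2719 without, while the 44 collagens had 5117 and 4367. The order of the fibroblast sums rests on Vim, which many cell types express, since without it they were 1164 and 1093.5.

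The upstream sequences of 4 members are given so that genes with large and small differences can be set side by side: Col1a2, with the largest difference of the fibrillar class, Col3a1 and Col24a1, with its smallest, and Col7a1 of the skin. Each is the 250 bases before the gene's start in RefSeq, build GRCm38.p6, plus strand. Capitals mark matches on either strand to the GC box GGGCGG, the CCAAT box, the TATA box TATAAA, the E-box CACGTG or the octamer ATGCAAAT.
Col1a2, chr6:4505368-4505617: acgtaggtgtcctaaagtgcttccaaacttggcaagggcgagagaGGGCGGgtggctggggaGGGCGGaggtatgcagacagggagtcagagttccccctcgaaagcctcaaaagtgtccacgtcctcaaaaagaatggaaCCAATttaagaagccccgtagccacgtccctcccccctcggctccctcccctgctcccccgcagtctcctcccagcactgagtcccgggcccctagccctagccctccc
Col3a1, chr1:45311288-45311537: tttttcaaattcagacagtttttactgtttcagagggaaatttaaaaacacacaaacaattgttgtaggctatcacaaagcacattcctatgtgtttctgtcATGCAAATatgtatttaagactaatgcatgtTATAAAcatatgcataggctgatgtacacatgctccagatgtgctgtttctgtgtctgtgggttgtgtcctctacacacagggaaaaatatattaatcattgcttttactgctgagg
Col24a1, chr3:145292222-145292471: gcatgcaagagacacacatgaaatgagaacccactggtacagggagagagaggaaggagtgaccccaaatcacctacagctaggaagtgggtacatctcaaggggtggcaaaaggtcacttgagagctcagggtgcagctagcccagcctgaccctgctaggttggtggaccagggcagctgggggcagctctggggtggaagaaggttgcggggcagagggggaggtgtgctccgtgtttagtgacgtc
Col7a1, chr9:108953336-108953585: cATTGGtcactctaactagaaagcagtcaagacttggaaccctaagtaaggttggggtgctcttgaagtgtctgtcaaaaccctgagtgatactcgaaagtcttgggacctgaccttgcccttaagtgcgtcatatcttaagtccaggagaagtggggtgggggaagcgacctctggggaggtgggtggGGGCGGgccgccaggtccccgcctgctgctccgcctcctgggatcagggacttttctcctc
Col1a2 holds 2 GC boxes and 1 CCAAT box at a GC content of 62%, while Col3a1, at 35.2%, holds 1 TATA box and 1 octamer. Col24a1 holds 0 of the 5 motifs and Col7a1 holds 1 GC box and 1 CCAAT box. The table of promoters matched 35 of the 44 collagens, with 38 windows. A GC box was found in 57.9% of those windows and in 32.7% of all 32851, and the median GC content was 59% and 52.4%. A CCAAT box was found in 34.2% against 33.8%, a TATA box in 13.2% against 12.4%, an octamer in 5.26% against 1.6%, and an E-box in 0% against 6.02%. A match is a stretch of letters and not a binding site.

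Type I collagen, the main protein of bone, skin and tendon, is built from the products of Col1a1 and Col1a2. Col1a1 had 7.61 with doxycycline and 7.16 without (1.36-fold), and Col1a2 had 7.16 and 6.66 (1.42-fold). Both chains were therefore higher by a similar amount, 0.45 and 0.50. Col3a1, whose product shares fibrils with type I in soft tissues, did not follow them, with 6.49 and 6.56, a difference of -0.07. Among genes of like mean level, 94.7% lay below the difference of Col1a1, 92.9% below that of Col1a2 and 30.6% below that of Col3a1.

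Type V collagen starts and limits the growth of type I fibrils. Col5a1 had 7.39 and 6.93 (1.37-fold) and Col5a3 had 6.91 and 6.66 (1.19-fold). Col5a2 had 6.11 and 5.61, a difference of 0.49 (0.32 once 32 was added to all linear values), but lay below the filter on both arrays. The 3 chains were thus all higher in the array labelled plus doxycycline, and each by less than 1.5-fold.

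Type II and type XI collagens make the fibrils of cartilage. Col2a1 had 7.36 and 7.002 (1.28-fold), and Col11a1 had 6.63 and 6.27, passing the filter only on the array labelled plus doxycycline. Col11a2, which encodes the partner chain of Col11a1, had 6.90 and 6.72, a difference of 0.18. Of the more recently described fibrillar types, Col27a1 had 7.42 and 7.04 (1.30-fold), while Col24a1 had 6.69 and 6.63 (1.04-fold), with 50.8% of genes of like level below it.

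Type IV collagen forms the network of basement membranes, and its 6 genes lie in 3 pairs of neighbours in the gene order. Col4a1 and Col4a2, on chromosome 8, encode the chains found in nearly all basement membranes. Col4a1 had 7.68 and 7.45, a difference of 0.23, and Col4a2 had 7.24 and 7.19, a difference of 0.05. Col4a3 and Col4a4, on chromosome 1, encode chains of the kidney filter and other specialised membranes. Col4a3 had 6.53 and 6.21, and Col4a4 had 6.48 and 6.31 and just missed the filter. Col4a5 (6.43 and 6.09) and Col4a6 (6.03 and 5.62), on the X chromosome, both lay below the filter. All 6 chains were above 0, with a median of 0.28 and a highest difference of 0.41, that of Col4a6. Of 12 markers of primitive or parietal endoderm, cells rich in type IV collagen, 8 were below 0, with a median of -0.15 and linear sums of 1443 with doxycycline and 1769 without. The most different passing the filter were Cubn (-0.93), Pdgfra (-0.43) and Dab2 (-0.33), whose 2 probesets disagreed, with -0.86 and 0.20. The first of these was bright on both arrays (8.64 and 9.50) and the second was dim (3.94 and 3.74). As the mean of both probesets, Dab2 passed only on the array labelled no doxycycline. Of the 9 passing, 3 were above 0, namely Gata4 (0.24), Amn (0.19) and Sox7 (0.16). The sums lean on Cubn, the brightest member of the list by the mean of a gene's probesets (8.18 and 9.11).

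The multiplexins, which sit in the basement membrane zone, went opposite ways. Col18a1, the source of the fragment endostatin, had 8.33 and 8.47, a difference of -0.14. Col15a1 had 6.65 and 6.28, a difference of 0.37, and passed only on the array labelled plus doxycycline.

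Of the other collagens, the FACIT group, whose members attach to the surface of fibrils, had 9 genes with all 9 differences above 0 and a median of 0.32. Type IX collagen, which coats cartilage fibrils, is encoded by Col9a1, Col9a2 and Col9a3. Col9a3 had 7.78 and 7.20 (1.49-fold), the largest difference among collagens passing the filter, at 0.58. Col9a2 had 7.64 and 7.46 (1.13-fold), and Col9a1 had 6.44 and 5.92 (1.43-fold) below the filter. The 3 chains of this one protein thus differed by 0.58, 0.18 and 0.51. Col16a1 had 6.99 and 6.67, and Col22a1 had 6.97 and 6.90. The remaining members lay below the filter, with 0.34 for Col12a1 and Col20a1, 0.07 for Col19a1 (5.48 and 5.40) and 0.02 for Col14a1. After removal of the trend with mean level, Col14a1 had -0.07 and Col19a1 -0.02, so their sign is not settled.

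Type VI collagen forms beaded filaments around cells. Its median was 0.10 over 6 genes, the lowest of the groups with more than 3 genes. Col6a1 had 6.84 and 6.71, Col6a2, its neighbour on chromosome 10, had 6.59 on both (-0.04 with the trend removed), and Col6a3 had 6.61 and 6.23. The genes Col6a4, Col6a5 and Col6a6, neighbours on chromosome 9, lay below the filter, with 6.33 and 6.22 for Col6a4, 5.81 and 5.995 for Col6a5 and 6.32 and 6.24 for Col6a6. Their differences were 0.11, -0.18 and 0.08. Col6a5 and Col6a6 are the 2 collagens with 2 probesets each. For Col6a5 these gave -0.37 and 0.01, and for Col6a6 0.17 and -0.0047, so the lowest value of the whole family rests on 1 of its 2 probesets.

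The membrane-spanning and epithelial collagens were mixed. Col17a1, a protein of the hemidesmosome that anchors skin epithelium, had 6.59 and 6.22, passing only on the array labelled plus doxycycline. Col7a1, which makes the anchoring fibrils below it, had 7.34 and 6.99 (1.28-fold). Col25a1, a transmembrane collagen of neurons, had 6.42 and 5.80 (1.53-fold), the largest difference of the family on the deposited values, but lay below the filter. Under each of the 3 other scalings Col9a3 had the larger difference, 0.64 against 0.53 with the trend removed, 0.63 against 0.59 after repeated quantile normalization and 0.49 against 0.42 once 32 was added to all linear values. Col23a1 had 7.29 and 7.02, whereas Col13a1, a transmembrane collagen of the neuromuscular junction, had 6.99 and 7.07, a difference of -0.08. The short-chain collagens were near 0 in 2 of 3 genes, with -0.01 for Col8a2 and -0.02 for the growth plate collagen Col10a1, while Col8a1 had 5.97 and 5.38, a difference of 0.59, below the filter. Col26a1 had 7.31 and 7.08, and Col28a1 6.001 and 5.86. Col8a1 and Col25a1 were the 2 collagens of at least 1.5-fold difference at any level, and the set changed with the scaling. It was Col9a3 alone with the trend on mean level removed, Col9a3 and Col25a1 after repeated quantile normalization, and 0 genes with this offset, where Col8a1 had 0.36. Of 9 measured markers of basal keratinocytes, which make types VII and XVII, 8 were above 0, with a median of 0.13 and linear sums of 4255 with doxycycline and 3417 without. Itgb4, the integrin chain of the hemidesmosome, had 0.93, Perp 0.85 and Itga6 0.11, while Dst, the other member passing the filter, had -0.09. The 5 members Krt5, Krt14, Trp63, Lama3 and Lamb3 lay below the filter. The sums lean on the brightest members, among them Perp (10.47 and 9.62).

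The genes that lie side by side did not have like differences throughout. The gene order holds 8 pairs of neighbouring collagens. In the pair Col3a1 and Col5a2 the differences were -0.07 and 0.49, and in Col9a1 and Col19a1 0.51 and 0.07. By contrast, Col4a5 and Col4a6 had 0.34 and 0.41. Of the genes in these pairs, Col3a1 alone passed the filter. Where both neighbours passed on both arrays, Col4a1 and Col4a2 had 0.23 and 0.05, and Col6a1 and Col6a2 had 0.13 and 0.005.

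The enzymes and chaperones that build collagen in the endoplasmic reticulum had a median nearer that of all genes, 0.03 over the 21 measured of 22 genes, with 11 above 0 and 0 of the 18 passing called. Serpinh1, which encodes the collagen chaperone Hsp47, was lower, with 7.51 and 8.21 (1.62-fold). Sec24d, of the coat that exports procollagen, had 7.90 and 8.28, and Crtap, of the prolyl 3-hydroxylase complex, had 9.40 and 9.01.

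Outside the cell, propeptides are cut from procollagen and the chains are cross-linked. Pcolce2, which encodes an enhancer of procollagen C-proteinase, was the one called gene in all the collagen pathway lists, at 10.35 against 8.98 (2.58-fold). Of all genes passing the filter 1.69% were called, so 1 call in lists of this size is not read as a trait of the pathway. Its paralog Pcolce differed in the other direction, with 9.91 and 10.33 (1.33-fold lower). Adamts14, a procollagen N-proteinase, had 7.63 and 7.35. This list had a median of 0.15 over the 12 measured of 14 genes, and 1 of the 6 passing was called. Over those 6 the median was -0.02, with 3 above 0. Pcolce2 stayed between 1.31 and 1.40 under all 4 of the other scalings and probeset choices tried.

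Of 12 genes for proteins that join fibrils, Fn1, which encodes fibronectin, alone passed the filter, with 11.59 and 11.92 (1.26-fold lower). The list median was 0.10 with 11 above 0, and it was 0.01 with 7 above 0 once the trend with mean level was removed. Among partners of type IV collagen in the basement membrane, 0 of 12 passing were called and the median was 0.13 over 14. The extremes pointed in opposite directions. Nid1 (nidogen), which bridges laminin and type IV collagen, had 10.22 and 9.35 (1.83-fold higher), and its paralog Nid2 had 8.89 and 9.51 (1.54-fold lower). Agrn, the heparan sulfate proteoglycan agrin, had 8.59 and 9.51 (1.89-fold lower).

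Collagen receptors had a median of 0.08 over 10 genes, which turned to -0.01 after removal of the trend, with 0 of 5 passing called. Itga10, an integrin chain that binds cartilage collagen, had 6.59 and 5.98 (1.53-fold), passing only on the array labelled plus doxycycline. The receptors Mrc2 and Ddr1 had -0.25 and -0.23, and Mrc2 (6.36 and 6.61) passed only on the array labelled no doxycycline. Genes of collagen breakdown had a median of 0.05 over 12 (0.01 with the trend removed), with 0 of 6 passing called. Timp1, an inhibitor of collagenases, had 9.57 and 8.87 (1.62-fold), Pepd, which splits proline dipeptides, had 8.14 and 8.49, and the gelatinase gene Mmp2 had 9.38 and 9.08.

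**Figure D3:**
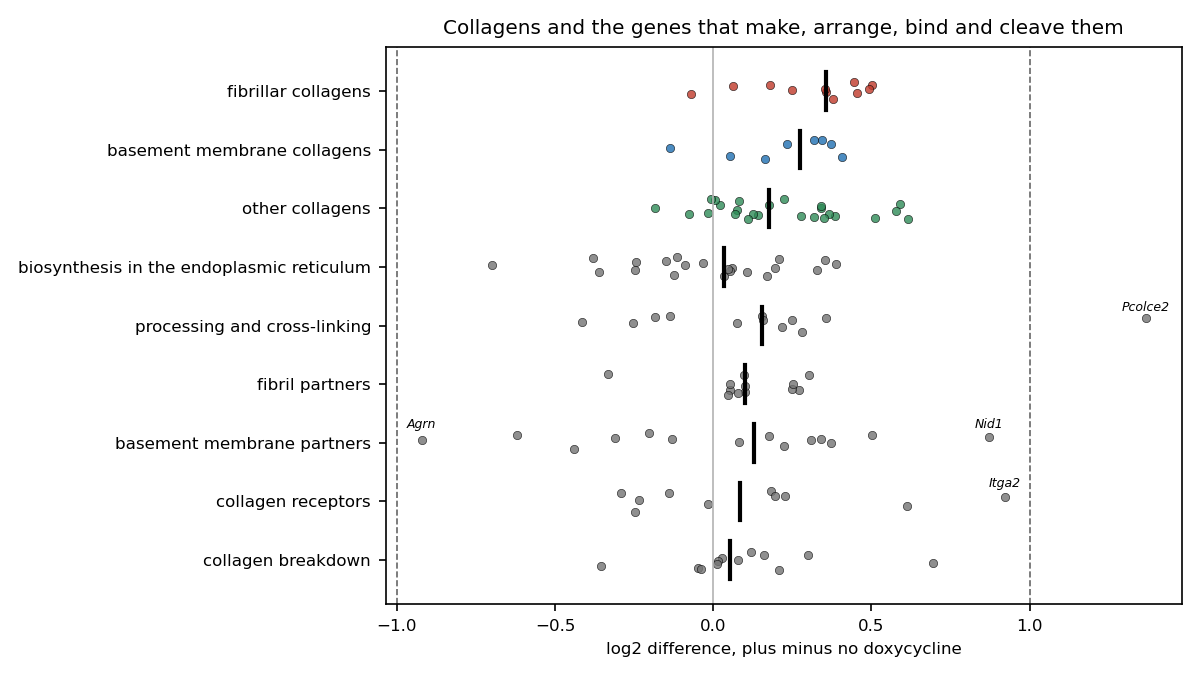
Log2 difference (plus minus no doxycycline) of each gene in the collagen classes (colour) and in the lists of genes that make, arrange, bind or cleave collagen (grey); black bars are list medians, dashed lines mark 2-fold, vertical scatter has no meaning, and labelled genes differ by at least 0.8. The class medians lie between 0.18 and 0.36 and the list medians between 0.03 and 0.15, with Pcolce2 at 1.37.

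Embryonic stem cell markers had a median of -0.44 with 8 of 10 below 0, led by Utf1 (-0.95), Tdgf1 (-0.73) and Dppa5a (-0.52). Summed on the linear scale they had 26802 with doxycycline and 33565 without. The part of any of the 4 marker lists in the collagen values was not tested.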

How the data were processed

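Per the labels, total RNA of each culture was converted to biotin-labelled sense-strand cDNA and hybridised to a whole-transcript array. The authors ran RMA in Affymetrix Expression Console, per the submitters' processing notes, and deposited its log2 values, 1 for each probeset on each array. Versions, build and annotation: not given in the sources used here. RMA aligns the arrays, so a shift shared by most genes would not show, and it compresses differences of dim genes; no detection call was given. Of 35556 probesets, 21789 have 1 gene, 1621 several and 12146 are unlisted. Collagens had 46 single-gene probesets and 0 that also name other genes; all 44 identifiers matched the mouse gene table of GRCm38.p6, used for names and gene order. A gene's value was the mean of its probesets. No test was possible with 1 array per group. The call rule was checked on simulated data with changes planted only in genes above the filter by a margin, so that check did not cover dimmer collagens. By the naming rule every collagen is accounted for, with both arrays' values where it differs 1.5-fold, has a collagen neighbour or is Col1a1, and of each other list the called genes and the 3 passing genes of largest difference are named; the values of the remaining collagens were added after they were seen. The members, lists and rules were chosen with earlier results of these data known. Alternatives were other filters, a loess trend removed, repeated quantile normalization, an offset of 32, the brightest probeset, single probesets, a 1.5-fold threshold and other class borders. Calculations used pandas 2.3.3 and NumPy 2.4.6 under Python 3.11.15, loess came from statsmodels 0.14.6, and plots from matplotlib 3.10.9.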

Additional observations from a re-analysis of the deposited data

How the results depend on the processing

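No paired analysis was possible because the 2 groups share only replicate number 1. Leaving out a replicate was not possible either, with 1 array per group. At 2-fold the count of called collagens stayed at 0 in both directions under every alternative run, including no filter and a stricter filter at 7.10. The choice of filter could not change this count, since the collagens' deposited differences lay between -0.18 and 0.62 at any level. At 1.5-fold with the filter it was 0 as deposited, and 1 higher gene (Col9a3) with the loess trend removed and 1 after repeated quantile normalization, alternatives chosen after seeing the data. The median over the 44 collagens lay between 0.20 (offset of 32) and 0.29 (repeated quantile normalization), and no class median moved by more than 1.5 times. The number of collagens above 0, an outcome added after seeing the data, was 35 with the loess trend removed, 36 after repeated quantile normalization, 38 with the offset and 39 by the brightest probeset. With the offset, Col25a1, Col8a1 and Col5a2 had 0.42, 0.36 and 0.32, and the receptor gene Itga10 had 0.43. For the 3 collagens the drop from the deposited difference was more than 0.167, the pooled SD of probesets around their gene's mean. That SD comes from probesets passing the filter, and the 3 collagens lay below it, so it does not cover them. The genes that changed sign were Col14a1, Col19a1, Col6a2 and Col6a5. The brightness of the probesets limits what can be seen, since 16 of the 44 collagens lay below the filter on both arrays.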

Other observations

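The 35 collagens with a promoter window were split by motif after their values had been seen, as a description only. The 5 genes with a TATA box had a median log2 difference of -0.02 and the 30 without one 0.26. With a GC box the median was 0.28 over 21 genes, and without one it was 0.15 over 14. With a CCAAT box it was 0.33 over 12 genes and without one 0.16 over 23, with an octamer 0.27 over 2 and without one 0.23 over 33, and 0 of the 35 had an E-box. Itga2, which encodes a collagen-binding integrin chain and was chosen after its value was seen, had 6.19 with doxycycline and 5.27 without, below the expression filter.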
